A study of Mus musculus with 23 samples.

Results

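Wide domains of H3K27ac, the acetylation of lysine 27 of histone H3, were described in Ebf2-EGFP+ cells of the mouse cerebral cortex at E15.5. They were chosen by their measured width: every peak of the E15.5 H3K27ac list that spanned at least 1000 bp on chromosomes 1 to 19 and X was taken, and such peaks are called wide peaks here. There were 1963 wide peaks among the 25764 peaks on these 20 chromosomes, which is 7.62% of peaks and 24.8% of the bases under peaks. Nearly all of them lay at gene starts. A protein-coding transcription start site (TSS) lay inside or within 5 kb of 1776 wide peaks (90.5%), against 47.8% of all E15.5 peaks. A peak was also present in Ebf2-EGFP+ cells at E11.5 under 1872 of the wide peaks (95.4%), against 35.8% of all E15.5 peaks, but wide peaks also meet more bases. The E11.5 peaks were usually narrower, which is a description and no finding, since peaks were chosen for being wide at E15.5.

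The cells came from embryos of the strain Tg(Ebf2-EGFP)FB58Gsat, in which EGFP is driven by the Ebf2 gene on a transgene, and every group carried this transgene. Cells were dissociated from the cerebral cortex, sorted by EGFP fluorescence and profiled by ChIP-seq for H3K27ac and for H3K27me3, the trimethylation of the same lysine. The 8 ChIP groups covered Ebf2-EGFP- cells of E11.5 and Ebf2-EGFP+ cells of E11.5, of E13.5 and of E15.5, each with either mark, and each group is represented by 1 deposited peak list. Each list stood for 2 ChIP libraries, except that of H3K27ac in Ebf2-EGFP- cells, which stood for 1. According to the study, Ebf2-EGFP+ cells at E11.5 are mostly preplate neurons, that is subplate cells and Cajal-Retzius (CR) neurons, those at E15.5 are CR neurons, and Ebf2-EGFP- cells at E11.5 are mostly progenitors. The population under the same sort therefore changes with stage, and a change within a cell type and a change in the mix of cells cannot be told apart. In sorted bulk chromatin, a mark in fewer cells and less of the mark per cell cannot be told apart either. Because each group had a single list, no replicate error could be computed and nothing was tested, so shares are given with Wilson 95% intervals that cover counting error only.

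H3K27ac is placed by the acetyltransferases CBP and p300 at active promoters and enhancers. H3K27me3 is placed on the same lysine by Polycomb repressive complex 2 at silent or poised genes, so that a histone tail cannot carry both. Many mammalian promoters lie in CpG islands, stretches rich in unmethylated CG dinucleotides, and broad acetylation around such starts is known from genes of high activity and from genes of cell identity. CR neurons are the first-born neurons of cortical layer 1, secrete Reelin and guide the layering of the cortex.

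To show what lay under some of these peaks, the 250 bases before the TSS were taken for Reln, Ebf3 and Tbr1, the 3 CR markers with a wide peak within 5 kb, and for Brd2 and Bcl11a, at the 2 widest peaks of at most 10 kb at a TSS. They were read from the RefSeq GRCm38.p6 genome, 5′ to 3′ along the gene, with every CG dinucleotide in capitals.
Reln (chr5:22344703-22344952, minus strand): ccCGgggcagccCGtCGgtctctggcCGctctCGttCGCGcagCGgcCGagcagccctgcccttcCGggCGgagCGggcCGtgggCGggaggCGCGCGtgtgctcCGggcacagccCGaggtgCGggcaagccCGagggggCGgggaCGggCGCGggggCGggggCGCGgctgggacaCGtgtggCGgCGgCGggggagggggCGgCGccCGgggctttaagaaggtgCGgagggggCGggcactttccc
Ebf3 (chr7:137314446-137314695, minus strand): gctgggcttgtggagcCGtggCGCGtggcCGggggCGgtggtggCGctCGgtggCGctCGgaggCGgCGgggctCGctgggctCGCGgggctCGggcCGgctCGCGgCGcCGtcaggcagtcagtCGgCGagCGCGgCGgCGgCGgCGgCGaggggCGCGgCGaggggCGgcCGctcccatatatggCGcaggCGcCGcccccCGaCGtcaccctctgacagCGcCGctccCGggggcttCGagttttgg
Tbr1 (chr2:61802680-61802929, plus strand): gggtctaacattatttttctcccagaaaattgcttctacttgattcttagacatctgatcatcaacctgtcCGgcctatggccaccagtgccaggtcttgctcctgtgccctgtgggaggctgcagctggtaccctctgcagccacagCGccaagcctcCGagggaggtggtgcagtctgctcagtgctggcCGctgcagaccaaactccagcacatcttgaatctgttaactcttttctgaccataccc
Brd2 (chr17:34122635-34122884, minus strand): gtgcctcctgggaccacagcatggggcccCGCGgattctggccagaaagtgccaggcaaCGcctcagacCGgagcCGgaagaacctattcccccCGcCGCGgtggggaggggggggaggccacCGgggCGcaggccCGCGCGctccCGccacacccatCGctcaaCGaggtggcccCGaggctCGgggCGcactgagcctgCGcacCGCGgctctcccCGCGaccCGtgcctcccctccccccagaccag
Bcl11a (chr11:24077806-24078055, plus strand): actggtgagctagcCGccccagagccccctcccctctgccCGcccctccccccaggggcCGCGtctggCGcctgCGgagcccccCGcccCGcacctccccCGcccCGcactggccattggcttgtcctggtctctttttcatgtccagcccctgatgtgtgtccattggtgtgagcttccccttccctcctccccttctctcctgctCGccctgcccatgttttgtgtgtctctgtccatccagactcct

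The Reln stretch held 37 CG dinucleotides and all of its 250 bases lay in the wide peak. The Ebf3 stretch held 43, and 39 of its bases lay in the wide peak. The Tbr1 stretch held 4, with 0 of its bases under the wide peak, which lay 1982 bp from the TSS. Hence a wide peak assigned to a gene did not always cover the annotated 5′ end of the gene, which was taken as its TSS. Whether the peak covered the start of another Tbr1 transcript was not examined. The ratio of CG dinucleotides observed to those expected from the base content was 0.961 for Reln, 1.11 for Ebf3, 0.722 for Brd2, 0.447 for Bcl11a and 0.228 for Tbr1. The GC box, GGGCGG on either strand, occurred 6 times before Reln, 3 times before Ebf3, 4 times before Bcl11a and 0 times before Tbr1 and Brd2.

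There were 9 wide peaks that were doubted, and they are named before the results. Of these, 3 exceeded 10 kb and lay end to end at the HoxA cluster (chr6:52066315-52209817). Another 3 lay in a row at the non-coding genes Gm26917 and CT010467.1 (chr17:39843000-39848828), where all lists but H3K27me3 of Ebf2-EGFP+ cells at E11.5 also had peaks and several of those exceeded 1000 bp. The last 3 were more than 50% soft-masked, that is annotated as repeats: one at Gm10801 and Gm10800 (chr2:98666250-98667345, 80.9%), chr13:85844353-85845427 (100%) and chr6:114499072-114500097 (83.0%). Without these 9 peaks, 1954 remained, the share at a TSS was 90.8% and the share with an E11.5 Ebf2-EGFP+ peak was 95.5%.

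Since width chose the members, widths are a description. The median was 1240 bp, the quartiles were 1100 and 1484 bp, and 111 peaks reached 2000 bp. The other 23801 peaks had a median of 268 bp. The widest peak of at most 10 kb spanned 4713 bp, so that the 3 peaks over 10 kb stood far from the rest. Just inside the limit were peaks of 1000 bp at Zbtb25 and Zbtb1, Ube2e1 and Cxxc5. Just outside were peaks of 999 bp at Snx18, Ube2e2 and Pdxp. The width was continuous across the limit, and 10 peaks measured exactly 1000 bp.

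**Figure D1:**
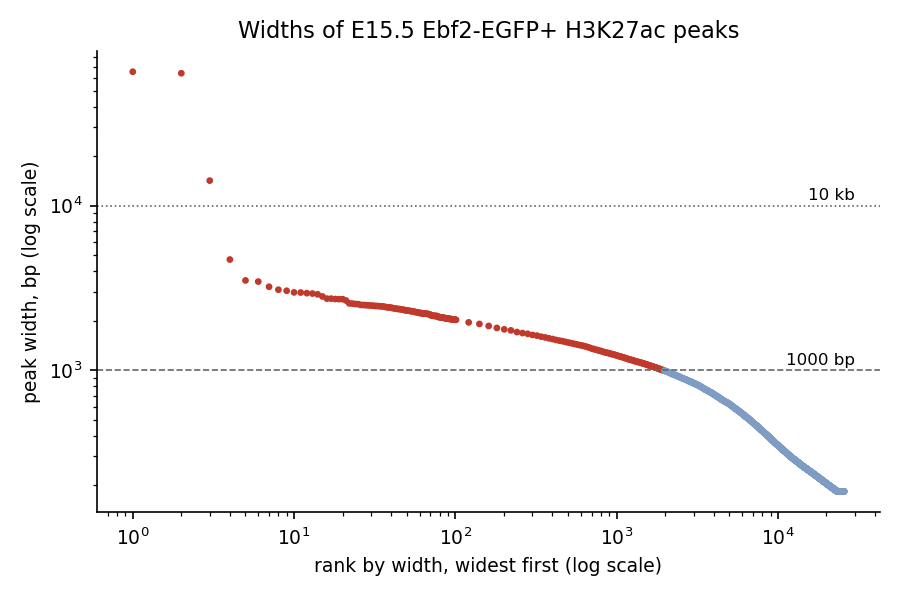
Width of E15.5 Ebf2-EGFP+ H3K27ac peaks in bp (y axis, log scale) against their rank by width (x axis, log scale), with wide peaks in red and a thinned set of the others in blue. The dashed and dotted lines mark 1000 bp and 10 kb, and 3 peaks stand above 10 kb while the next reaches 4713 bp.

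The position of the wide peaks was compared with that of narrower peaks of the same list. A protein-coding TSS lay inside 1431 wide peaks (72.9%, interval 70.9 to 74.8), against 21.2% of all E15.5 peaks. By width class the share within 5 kb of a TSS was 25.4% under 300 bp, 55.0% from 300 to under 500 bp, 87.0% from 500 to under 1000 bp and 90.5% (89.1 to 91.7) for wide peaks. Thus wide peaks were close to the next class in this share, while the share that held a TSS was 56.8% in that class and farther below that of wide peaks. In 215 wide peaks (11%) at least 2 protein-coding starts lay inside, against 2.06% of all peaks. A wider peak takes in more bases and so more starts, so that the shares with a TSS inside are partly set by the choice by width and are a description. The centre of 1596 wide peaks (81.3%) fell in a promoter, taken as 1 kb on either side of a TSS, that of 207 (10.5%) in an exon, that of 137 (6.98%) in an intron and that of 23 (1.17%) between genes. Of the peaks under 300 bp, 30.6% had their centre between genes.

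**Figure D2:**
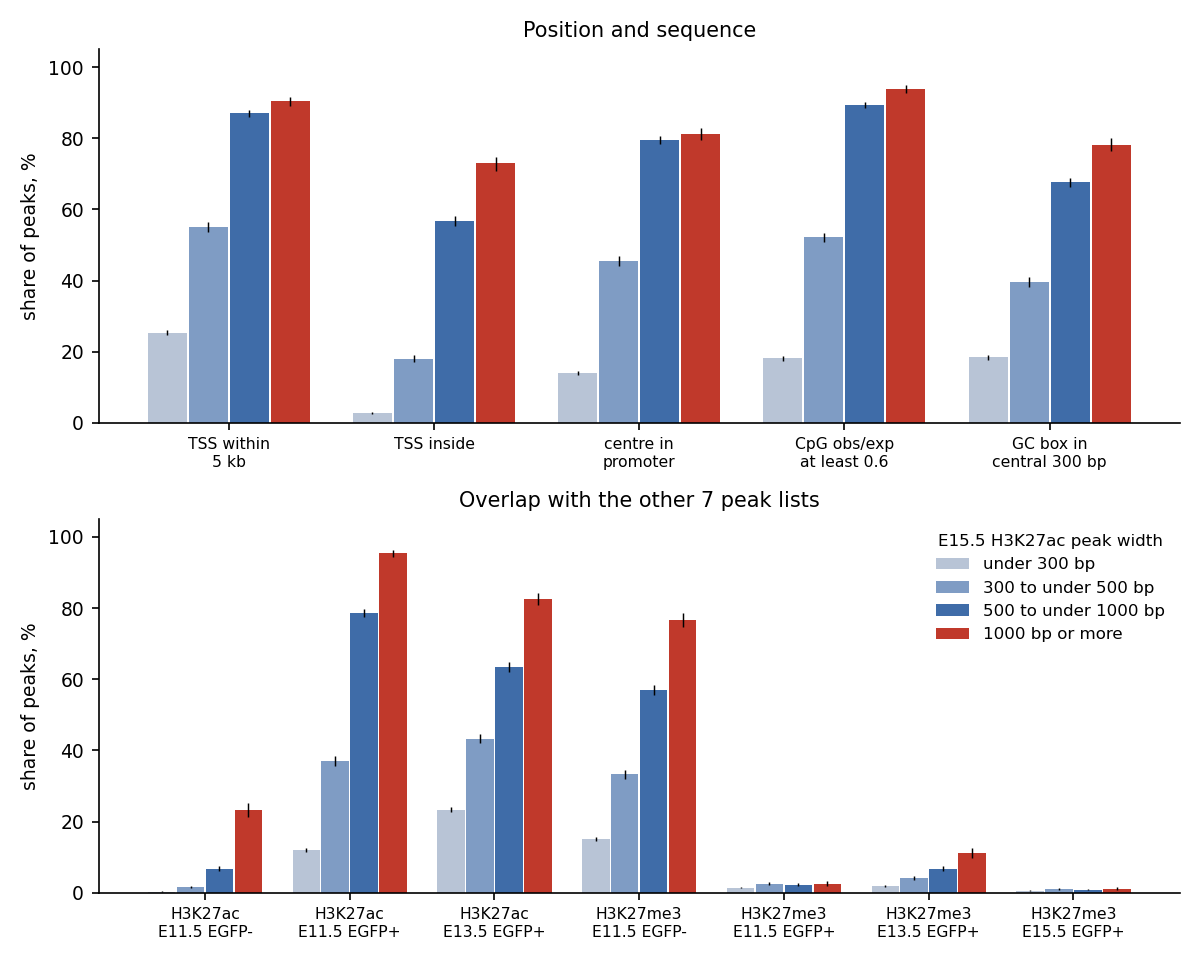
Share of E15.5 H3K27ac peaks in percent (y axis) in 4 classes of width (colours), for position and sequence (top) and for overlap with the other 7 peak lists (bottom), with Wilson 95% intervals as bars. Wide peaks, in red, reach 90.5% for a TSS within 5 kb and 95.4% for overlap with E11.5 Ebf2-EGFP+ H3K27ac, and stay at 1.12% for overlap with E15.5 H3K27me3.

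Wide peaks that held a TSS extended farther into the gene than before it. Over these 1431 peaks the median reach was 424 bp upstream (quartiles 233 and 603) and 867 bp downstream (672 and 1062), and 82.0% had more bases downstream (79.9 to 83.9). Where 1 annotated gene start lay within 5 kb, which leaves out starts shared by diverging genes, the share was 87.6% of 728 peaks. Peaks from 500 to under 1000 bp with a TSS reached a median of 146 bp upstream and 534 bp downstream, with more bases downstream in 88.3%. The downstream lean was therefore present in both classes. The TSS was the annotated 5′ end of the gene, so that a transcript start farther in would place a peak downstream of it. The part of such starts in the lean was not tested. Both reaches add up to the width that chose the peaks, so that their greater length in wide peaks is a description. At 500 bp upstream 39.0% of the wide peaks covered the position, and at 500 bp downstream 92.5% did.

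**Figure D3:**
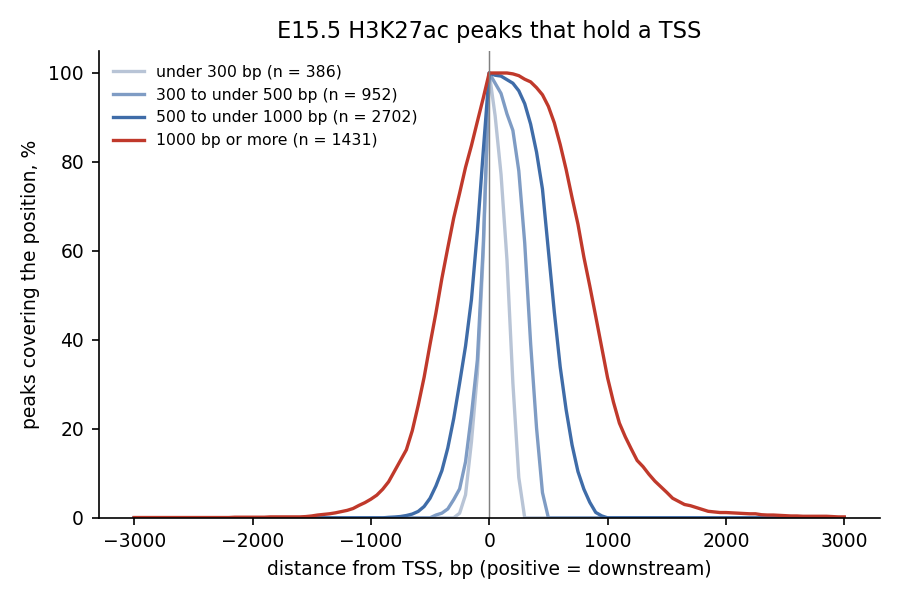
Share of TSS-holding E15.5 H3K27ac peaks that cover each position (y axis, percent) against the distance from the TSS in bp, positive downstream (x axis), in 4 width classes with the number of peaks in the key. Wide peaks, in red, cover 39.0% at 500 bp upstream and 92.5% at 500 bp downstream.

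The sequence under the wide peaks was rich in CG dinucleotides. In the central 300 bp the GC content was 71.9% ± 7.29 (SD over 1963 peaks), against 56.2% ± 6.65 in peaks under 300 bp and 69.3% ± 7.30 in peaks from 500 to under 1000 bp. A ratio of observed to expected CG of at least 0.6, a usual criterion for CpG islands, was met by 1844 wide peaks (93.9%), by 89.3% of the class from 500 to under 1000 bp and by 18.1% of peaks under 300 bp. The class from 500 to under 1000 bp was thus close to the wide peaks in composition. Of the 187 wide peaks with no protein-coding TSS within 5 kb, 171 (91.4%, 86.6 to 94.7) met the criterion too.

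Motifs were counted in the central 300 bp, in letters and on both strands, beside the 300 bases from 250 before to 50 after all 21755 protein-coding starts. GGGCGG, the box bound by SP factors, was found in 78.2% of wide peaks, 36.4% of all E15.5 peaks and 43.4% of the windows at starts. CCCNNGGG, the core of the site of EBF factors, was found in 31.3% of wide peaks, 20.9% of all peaks and 15.9% of windows at starts. In peaks from 500 to under 1000 bp it was found in 30.3%, so that the interval of the wide peaks (29.3 to 33.4) held the value of the next class. CANNTG, the E-box of proneural factors, went the other way, with 45.7% of wide peaks against 70.7% of all peaks and 69.9% of windows at starts. CCAAT was found in 14.6% of wide peaks and 38.9% of windows at starts, TATAAA in 1.38% and 12.7%, TAATTA in 0.306% and 5.22%, and TGACTCA in 1.43% and 4.55%. TGACGTCA, bound by CREB and ATF factors, was found in 1.43% of wide peaks, 0.776% of all peaks and 2.45% of windows at starts. The GC content given above moved with these counts, and its part in them was not tested. For motifs other than CCCNNGGG the next class, close to wide peaks in GC content, is not reported here. For those motifs, a difference from all peaks is therefore not shown to be particular to wide peaks. The central 300 bp of a wide peak and the window at a start are different stretches. Wide peaks that held a TSS reached a median of 424 bp upstream and 867 bp downstream. Their centres therefore tended to lie downstream of the TSS, and the part of this offset in the motif shares was not tested. A match is a count of letters and not a bound site.

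The wide peaks were next compared with the other H3K27ac lists, to ask which of them were marked earlier. Overlap was counted from 1 bp. In Ebf2-EGFP+ cells at E11.5, 1872 wide peaks met a peak (95.4%, 94.3 to 96.2), against 35.8% of all E15.5 peaks. At E13.5, 1620 did (82.5%, 80.8 to 84.1), against 39.3%. In Ebf2-EGFP- cells at E11.5, 455 did (23.2%, 21.4 to 25.1), against 3.52%. Each share of the wide peaks was therefore above that of the whole list, but wide peaks also meet more bases, and the lists differed in size, with 37055, 102881 and 1386 peaks in this order.

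The central 200 bp of each peak, which are equal for all widths above 200 bp, gave lower shares. With E11.5 Ebf2-EGFP+ cells the share was 84.7% for wide peaks (83.1 to 86.2) and 73.5% for peaks from 500 to under 1000 bp (72.3 to 74.8). For Ebf2-EGFP- cells it was 15.3% (13.8 to 16.9) against 5.97% (5.33 to 6.68). For E13.5 it was 50.9% (48.7 to 53.1) against 50.3% (48.9 to 51.8), where the intervals overlapped. The central stretch of wide peaks thus met the 2 lists of E11.5 more often than that of the next class did, while at E13.5 no difference was detectable. Of the 1620 wide peaks that met an E13.5 peak, 38.3% met it outside the central 200 bp alone, against 11.2% for E11.5 Ebf2-EGFP+ cells.

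By stage, 1552 wide peaks (79.1%) met a peak of Ebf2-EGFP+ cells at both E11.5 and E13.5, 320 (16.3%) at E11.5 and not at E13.5, 68 (3.46%) at E13.5 and not at E11.5, and 23 (1.17%) at neither. All 3 other H3K27ac lists were met by 396 (20.2%). None of the 23 met an H3K27ac peak of Ebf2-EGFP- cells, while 11 of them met an H3K27me3 peak of those cells, of 163 to 693 bp. These 23 were near the lower limit of width, from 1012 to 1298 bp, and 17 had a TSS within 5 kb. The widest 5 of those 17 lay at Dpysl2 (chr14:66866967-66868264, 1298 bp), a microtubule-binding protein of growing axons, Cpeb4 (chr11:31870372-31871618, 1247 bp), a regulator of polyadenylation, Camk1d (chr2:5713857-5715094, 1238 bp), a calmodulin-dependent kinase, Tmem59 and Tceanc2 (chr4:107178253-107179454, 1202 bp) and Sez6l (chr5:112576518-112577709, 1192 bp). At the wide peak of Camk1d there was an H3K27me3 peak of 693 bp in Ebf2-EGFP- cells, and at that of Sez6l one of 275 bp. The other 3 of these met no peak of any other list. Dpysl2, however, was marked within 5 kb of its TSS outside the wide peak. At E11.5 the widest peaks there were 508 bp for H3K27ac in Ebf2-EGFP+ cells and 188 bp for H3K27me3 in Ebf2-EGFP- cells.

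Where an earlier peak was present, it covered part of the wide peak. In E11.5 Ebf2-EGFP+ cells the median cover was 59.3% of the bases of the wide peaks met (quartiles 43.5 and 73.7), at E13.5 it was 31.5% (19.8 and 45.0), and in Ebf2-EGFP- cells 19.3%. The widest earlier peak in a wide peak had a median of 669 bp at E11.5, 319 bp at E13.5 and 266 bp in Ebf2-EGFP- cells. An E11.5 peak at least as wide was found at 34 of the 1872. Since peaks were chosen for being wide at E15.5, narrower peaks in the other lists are a description and no finding. The E13.5 list had more peaks than the E11.5 list of Ebf2-EGFP+ cells and a lower median cover. Single peaks went the other way, as at Bcl11a, which was covered to 10.2% at E11.5 and 29.8% at E13.5, and at Neurod2, with 15.3% and 22.5%.

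Wide peaks in the other lists were counted by the same limit. The list of E11.5 Ebf2-EGFP+ cells held 402 peaks of at least 1000 bp, and 343 of them (85.3%, 81.5 to 88.4) met an E15.5 wide peak, which are 17.5% of the E15.5 wide peaks. That of E13.5 held 468, of which 61 (13%, 10.3 to 16.4) met 28 E15.5 wide peaks (1.43%). Within the HoxA block named above lay 36 of the 468, and without it 25 of 432 (5.79%) met a wide peak. The list of Ebf2-EGFP- cells held 4, all of which met an E15.5 wide peak. By this limit the E11.5 wide peaks therefore mostly met the E15.5 set, whereas those of E13.5 mostly lay elsewhere. The share depended on how many peaks were taken. Of the 1963 widest peaks of E11.5 Ebf2-EGFP+ cells, as many as there were wide peaks at E15.5, 53.9% met a wide peak, and of those of E13.5 10.5% did. Ebf2-EGFP- cells had fewer peaks than that, and 486 of all 1384 on the 20 chromosomes (35.1%) met one. By genes, 406 had an E11.5 wide peak within 5 kb, and 363 of them (89.4%) also had one at E15.5, which is 17.0% of the 2130 genes with an E15.5 wide peak. Among those that did not, Nkx6-1, a homeobox factor of ventral neural progenitors, went from 1579 bp to no peak, and Wasl from 1329 to 845 bp.

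H3K27me3 was compared next, to ask where the wide peaks carried the Polycomb mark. In Ebf2-EGFP- cells at E11.5, 1506 wide peaks met an H3K27me3 peak (76.7%, 74.8 to 78.5), against 31.2% of all E15.5 peaks. In Ebf2-EGFP+ cells 47 did at E11.5 (2.39%, 1.81 to 3.17), against 1.90%, and 218 at E13.5 (11.1%, 9.79 to 12.6), against 4.0%. At E15.5, in the same cells as the wide peaks, 22 did (1.12%, 0.741 to 1.69), against 0.792%. The shares at E11.5 and E15.5 of Ebf2-EGFP+ cells were near those of the whole list. The lists held 48963, 6387, 6721 and 1438 peaks in this order. The largest list gave the largest share, but the lists of E11.5 and E13.5 in Ebf2-EGFP+ cells were close in size and gave 2.39% and 11.1%. In the central 200 bp the E13.5 share was 3.97% for wide peaks (3.20 to 4.93) and 4.31% for peaks from 500 to under 1000 bp (3.77 to 4.93), which overlapped, and 64.2% of the wide peaks that met E13.5 H3K27me3 met it outside this stretch alone. In the same stretch the share with Ebf2-EGFP- H3K27me3 was 46.7% for wide peaks (44.5 to 48.9) and 45.9% for peaks from 500 to under 1000 bp (44.5 to 47.3), which overlapped.

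H3K27me3 in Ebf2-EGFP- cells and in no list of Ebf2-EGFP+ cells was found at 1282 wide peaks (65.3%), and H3K27me3 in at least 1 list of Ebf2-EGFP+ cells at 275 (14.0%), against 6.09% of all E15.5 peaks. The wide peaks meet more bases, and in their central 200 bp the latter was found at 99 (5.04%). The H3K27me3 peaks were narrow, with a median of 294 bp for the widest in each wide peak in Ebf2-EGFP- cells, and they covered a median of 27.4% of the bases. Overlap of these intervals does not show both marks on 1 nucleosome or in 1 cell.

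Of the 22 wide peaks with H3K27me3 at E15.5, 3 were those over 10 kb, and 4 others were among the doubted peaks. In the other 15 the widest H3K27me3 peak had a median of 156 bp, with 246 bp at Prdm10 and at Pan3. Prdm10 is a zinc finger factor and Pan3 a subunit of a deadenylase. All 15 had a ratio of observed to expected CG of at least 0.6, against 93.9% of all wide peaks. Of the 15, 12 had a TSS within 5 kb, against 90.5% of all wide peaks.

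The 3 peaks over 10 kb were possible artefacts and were described apart. They measured 14209, 65143 and 63794 bp, were separated by gaps of 189 and 168 bp, and together spanned 143503 bp (chr6:52066315-52209817). The last of them held the starts of Hoxa2, Hoxa4, Hoxa5 and Hoxa6, among other homeobox genes that pattern the hindbrain and trunk, the middle one lay at the non-coding gene Halr1, and the first held no annotated gene. At E13.5 the H3K27ac list had 60 peaks in this block that covered 90.7% of it, the first 135 bp after its start and the last 66 bp before its end. Stretches of the same length on either side were covered to 0.206% and 4.27%. H3K27ac had 0 peaks in the block at E11.5 in either cell group. The acetylated stretch therefore had the same outer limits in the E13.5 and E15.5 lists.

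H3K27me3 at E15.5 had 139 peaks in the same block, which covered 33.4% of it and made up 18.5% of all bases of that list, and it had 0 peaks in both flanks. H3K27me3 had 36 peaks in the block in Ebf2-EGFP- cells (7.42%), and in Ebf2-EGFP+ cells it had 0 at E11.5 and 4 at E13.5 (0.522%). Both marks were thus listed across it at E15.5, and a peak list does not tell whether they were in the same cells. Hoxa7, next to the block, had an E15.5 peak of 418 bp. Of the 33 Hox genes away from the block, 7 had any E15.5 H3K27ac peak within 5 kb and 0 a wide one.

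**Figure D4:**
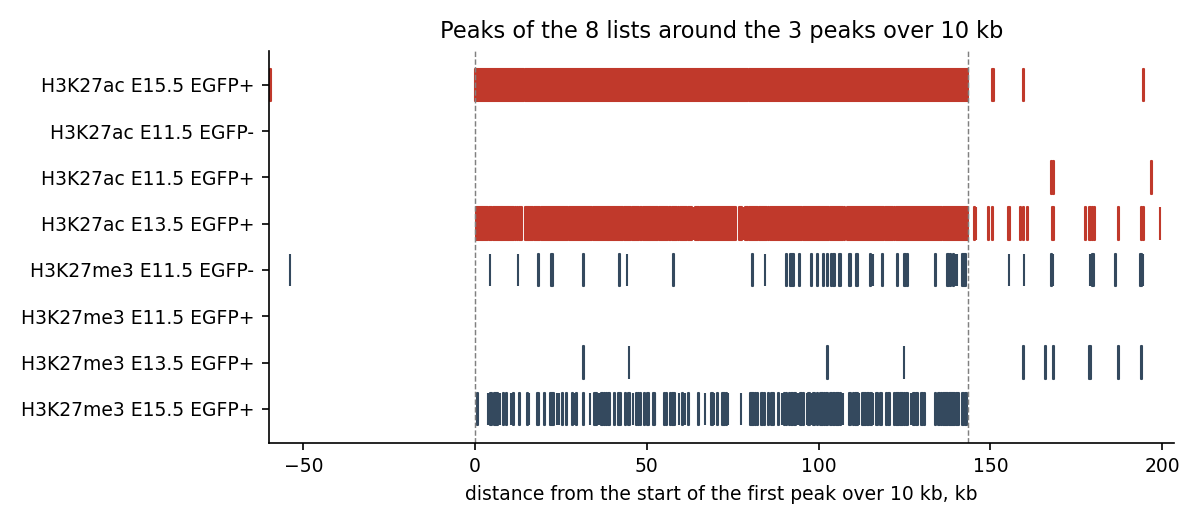
Peaks of the 8 lists (rows, H3K27ac in red and H3K27me3 in dark blue) around the 3 E15.5 H3K27ac peaks over 10 kb, by distance in kb from the start of the first (x axis), with dashed lines at the outer ends of the 3 peaks. H3K27ac at E13.5 and H3K27me3 at E15.5 are spread over the space between the lines, with 60 peaks that cover 90.7% of it and 139 that cover 33.4%, and the rows of H3K27ac at E11.5 are empty there.

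Among wide peaks of at most 10 kb at a TSS, the 12 widest were from 2813 to 4713 bp. They lay at Brd2 and H2-DMa (chr17:34118255-34122967, 4713 bp), Bcl11a and A830031A19Rik (chr11:24075879-24079397, 3519 bp), Kdm6b (chr11:69408758-69412220, 3463 bp), Irf2bpl (chr12:86881714-86884934, 3221 bp), Hivep2 (chr10:13964576-13967665, 3090 bp) and Mex3b (chr7:82867230-82870274, 3045 bp). They also lay at Phf21b (chr15:84853526-84856502, 2977 bp), Ptprg (chr14:11553025-11555995, 2971 bp), Neurod2 (chr11:98326757-98329702, 2946 bp), Phf12 (chr11:77982443-77985371, 2929 bp), Arid1a (chr4:133751889-133754786, 2898 bp) and Insm1 (chr2:146221050-146223862, 2813 bp). Brd2 reads acetylated histones, Kdm6b removes methyl groups from lysine 27 of histone H3, and Arid1a is a subunit of the BAF remodelling complex. Bcl11a, Neurod2 and Insm1 are transcription factors of neuronal differentiation, and Mex3b binds RNA.

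All 12 met an H3K27ac peak in Ebf2-EGFP+ cells at E11.5, of 216 to 1452 bp (median 788), and at E13.5, of 195 to 659 bp (median 303). In Ebf2-EGFP- cells 4 did, of 190 to 297 bp. An H3K27me3 peak of Ebf2-EGFP- cells met 11 of the 12, of 138 to 491 bp, with Phf21b as the exception, and H3K27me3 at E15.5 met 0. For Bcl11a, within 5 kb of the TSS, the widest H3K27ac peak was 194 bp in Ebf2-EGFP- cells, and from E11.5 to E15.5 in Ebf2-EGFP+ cells it was 370, 590 and 3519 bp. For Neurod2 there was none in Ebf2-EGFP- cells, and the widths were 296, 394 and 2946 bp. For Insm1 they were 190 bp and then 1442, 242 and 2813 bp. The E13.5 peak was the narrowest of the 3 stages at Insm1 and not at Bcl11a or Neurod2.

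Wide peaks away from protein-coding starts were few. There were 187 (9.53%) with no protein-coding TSS within 5 kb, of which 130 had the start of another transcript of a protein-coding gene and 59 the start of a long non-coding RNA within 5 kb. No annotated start of either kind lay within 5 kb of 22 (1.12%). The 5 widest of at most 10 kb away from a TSS lay at Lncppara (chr15:85669791-85672241, 2451 bp), Mir9-3 (chr7:79504240-79506554, 2315 bp), Stox2 (chr8:47287238-47289537, 2300 bp), Ppp2r3d (chr9:124423107-124425397, 2291 bp) and CT010467.1 (chr17:39846690-39848828, 2139 bp). The last is 1 of the doubted peaks. The other 4 met H3K27ac of E11.5 Ebf2-EGFP+ cells with peaks of 1189, 1136, 1447 and 705 bp. A second wide peak of Tbr1 (chr2:61811353-61812559, 1207 bp), 80.9% exonic, lay inside the gene and was 1 of the 22.

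Some of these domains held microRNA genes, which encode short RNAs that pair with target transcripts through their seed, bases 2 to 8. Of 1005 hairpins in RefSeq, 29 (2.89%) lay wholly in a wide peak and 77 (7.66%) met any E15.5 H3K27ac peak. The mature sequences from 5 of them with roles in neurons or their progenitors are shown as RefSeq gives them, with the seed in capitals. They were picked after the hairpins in wide peaks were known.
miR-9-5p, from Mir9-1 and Mir9-3: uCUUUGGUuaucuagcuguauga
miR-9-3p, from Mir9-1 and Mir9-3: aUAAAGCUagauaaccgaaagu
let-7i-5p, from Mirlet7i: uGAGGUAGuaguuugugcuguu
miR-212-3p, from Mir212: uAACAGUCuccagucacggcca
miR-219a-5p, from Mir219a-1: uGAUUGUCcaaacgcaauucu

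miR-9 is abundant in neural progenitors and young neurons, and both of its loci with a wide peak give the same mature RNA and so share the seed. Mir9-1 lay in a wide peak of 2069 bp (chr3:88214476-88216544) that met H3K27ac peaks of 499 bp at E11.5 and 208 bp at E13.5 in Ebf2-EGFP+ cells. At Mir9-3, in the peak of 2315 bp, the widths were 1136 and 371 bp, and Ebf2-EGFP- cells had an H3K27me3 peak of 739 bp there. Neither locus met H3K27ac of Ebf2-EGFP- cells. Mirlet7i, of the let-7 family that rises with differentiation, lay in a wide peak of 1353 bp (chr10:122985261-122986613) with peaks of 598 and 343 bp at the earlier stages and 244 bp in Ebf2-EGFP- cells. Mir212 lay in 1 of 1010 bp (chr11:75172599-75173608) and Mir219a-1 in 1 of 1336 bp (chr17:34024149-34025484) at Ring1. The promoter that drives each microRNA was not identified here.

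By genes, 2130 of 21755 protein-coding genes (9.79%) had a wide peak within 5 kb of the TSS. Any E15.5 H3K27ac peak was found at 11467 genes (52.7%), of which 18.6% had a wide one. Genes with a wide peak were longer, with a median of 32.8 kb (quartiles 12 and 78.0) against 21.2 kb (8.55 and 49.9) for genes with narrower peaks, as a description and without a test. For the lists that follow, counts are read beside these 9.79% of all genes, and no list was tested. All lists were drawn up with earlier results of these data known.

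The list with the highest share was that of enzymes and readers of H3K27, with 9 of 12 genes (75%, 46.8 to 91.1). The widest E15.5 peak was 3463 bp at Kdm6b, 1708 bp at the acetyltransferase Crebbp, 1439 bp at the methyltransferase Ezh2, 1382 bp at the acetyltransferase Ep300, 1190 bp at the deacetylase Hdac2, 1186 bp at the Polycomb subunit Suz12, 1125 bp at Eed and 1122 bp at the demethylase Kdm6a. In Ebf2-EGFP+ cells at E11.5 the peak was 647 bp at Kdm6b, 1028 bp at Crebbp and 1187 bp at Ezh2. Writers and erasers of both marks were thus among the genes with wide peaks. Housekeeping genes followed with 7 of 14 (50%), among them Ywhaz with 2312 bp and Hsp90ab1 with 2068 bp.

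Several lists of neuronal genes had shares above the 9.79% of all genes. Of the neuronal cytoskeleton, 8 of 20 had a wide peak (40%, 21.9 to 61.3), with 2060 bp at Mapt, which encodes tau, 1909 bp at the intermediate filament gene Ina and 1460 bp at Tubb3. Of the neuronal RNA-binding proteins, 6 of 16 did (37.5%, 18.5 to 61.4), with 1725 bp at Elavl3 and 1492 bp at the splicing factor Srrm4. Of synaptic vesicle release genes, 5 of 20 did (25%, 11.2 to 46.9), with 1600 bp at the priming factor Unc13a and 1467 bp at Syp, where E11.5 had no H3K27ac peak and E13.5 one of 139 bp. Of axon guidance and migration genes, 5 of 23 did (21.7%), with an interval of 9.66 to 41.9 that held the share of all genes, and with 1501 bp at Vldlr and 1493 bp at Lrp8, the receptors of Reelin, and 1532 bp at Plxna2. Lrp8 and Vldlr receive the protein that Reln encodes, and so the ligand and both receptors had a wide peak. Any E15.5 H3K27ac peak was found at 16, 14, 18 and 19 genes of these 4 lists in turn, and of all genes with any peak 18.6% had a wide one.

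Of the CR markers named by the study, 3 of 9 had a wide peak (33.3%, 12.1 to 64.6), and 6 of 9 had any E15.5 H3K27ac peak. This list was chosen by the study with these cells in view and is not independent evidence. At Reln the widest H3K27ac peak within 5 kb of the TSS was 267 bp in Ebf2-EGFP- cells, and from E11.5 to E15.5 in Ebf2-EGFP+ cells it was 326, 126 and 1625 bp, with no H3K27me3 peak in any list. The E15.5 peak (chr5:22343705-22345329) covered the TSS. At Ebf3, a factor of the same family as Ebf2, there was none in Ebf2-EGFP- cells and then 481, 625 and 1337 bp, with H3K27me3 of 248 bp in Ebf2-EGFP- cells and 205 bp at E13.5. At Tbr1, a T-box factor of early cortical neurons, the widths were 197 bp and then 907, 755 and 1131 bp. Reln was widest by far at E15.5, while Tbr1 was close in width over the 3 stages.

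The other CR markers had narrow peaks or none at E15.5. Ebf2 itself, whose regulatory sequence drives EGFP, had no H3K27ac peak within 5 kb of its TSS at E15.5, with 151 bp at E11.5 and 147 bp at E13.5. Calb2 had 250 bp at E13.5 and none at E15.5. Trp73, which encodes p73, had 286, 782 and 344 bp over the 3 stages, and Lhx1 277 bp and Lhx5 513 bp at E15.5. Absence from a peak list at an unknown depth does not show absence of the mark. Of the 8 layer 1 genes named by the study 0 had a wide peak, and of 12 protein-coding genes that it names among those rising in CR cells 1 did, which was Reln, though all 12 had a peak. B3gat1, which makes the HNK-1 carbohydrate, came nearest with 982 bp.

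Subplate and layer factors had 6 of 17 (35.3%, 17.3 to 58.7), at Bcl11a, Pou3f3 with 2209 bp, Fezf2 with 1433 bp, Cux1 with 1282 bp and Pou3f2 and Tbr1 with 1131 bp each. Fezf2, a factor of deep-layer projection neurons, had 332 and 154 bp at E11.5 and E13.5. Of proneural and neuronal transcription factors, 7 of 30 did (23.3%, 11.8 to 40.9), including Neurod2, Insm1, Scrt1 with 2460 bp, Bhlhe22 with 1503 bp and Neurog2 with 1054 bp. Ebf3 and Tbr1, counted above as CR markers, were also among these 7. The other genes named here from both lists are genes of cortical projection neurons and of neurogenesis at large. The study reports Fezf2 RNA in some of the E15.5 Ebf2-EGFP+ cells themselves, and which cells carried these peaks was not tested. Of progenitor genes, 4 of 18 did (22.2%), among them Dll1 with 1373 bp and Emx2 with 1188 bp, while Sox2 and Pax6 had no E15.5 peak within 5 kb. No measure of the cells other than these peaks was used here.

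Of immediate early genes, 5 of 16 had a wide peak (31.2%, 14.2 to 55.6), at Jund with 2029 bp, Jun with 1764 bp, Fosl2 with 1729 bp, Ier5 with 1438 bp and Ier2 with 1099 bp. Of cell cycle genes 1 of 18 did, which was Cdk4. It had 2 wide peaks within 5 kb of its TSS, and the wider, of 1601 bp, lay 2739 bp before the TSS. The 15 factors of non-neural lineages had 0 (interval to 20.4%), with any peak at 3. The 43 markers of GABAergic neurons, microglia, endothelium, meninges, oligodendrocyte lineage, erythroid cells and cortical hem with choroid plexus had 0 (interval to 8.20%), with any peak at 15. No gene on these last lists thus had a wide peak. Of the 17 Hox genes listed, 4 did, all through 1 peak over 10 kb.

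**Figure D5:**
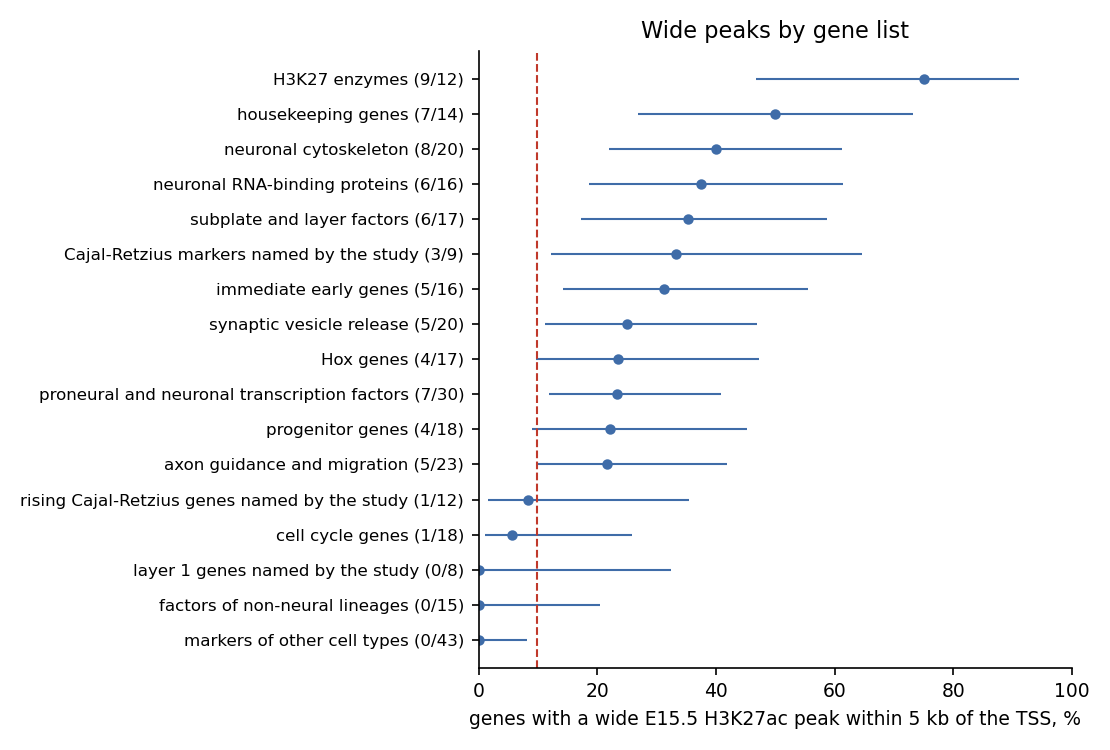
Share of genes with a wide E15.5 H3K27ac peak within 5 kb of the TSS (x axis, percent, with Wilson 95% intervals) for each gene list (rows, with counts), and the 9.79% of all protein-coding genes as a dashed red line. The H3K27 enzymes stand highest with 9 of 12, and the non-neural factors, layer 1 genes and markers of other cell types are at 0.

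Over the lists, 63 genes had a wide peak of at most 10 kb, and 39 of these peaks covered the TSS. An H3K27ac peak within 5 kb was present at 62 of the 63 in E11.5 Ebf2-EGFP+ cells, at 56 in those of E13.5, and at 16 in Ebf2-EGFP- cells. The exception at E11.5 was Syp. The E11.5 peak was at least as wide as that of E15.5 at 4 genes, which were Crmp1 (1036 against 1001 bp), Rbfox3 (1166 against 1071), Msi1 (1816 against 1325) and Hdac2 (1209 against 1190). At E13.5 this held for 0 of the 63. Since these genes were taken for a wide peak at E15.5, both counts are partly set by that choice and are a description.

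Gene families were also counted, and these were picked after values were seen. All 4 Mex3 genes, which encode RNA-binding ubiquitin ligases, did, with 2413 bp at Mex3a, 3045 bp at Mex3b, 1543 bp at Mex3c and 2531 bp at Mex3d. All 5 Kmt2 genes, of the family of methyltransferases of lysine 4 of the same histone, did, with 1029 bp at Kmt2d to 2728 bp at Kmt2e. Of the Hnrnp genes, which bind nascent RNA, 12 of 20 did, and of the Arid genes 5 of 10. So did 5 of 8 Setd genes, 2 of 3 Irf2bp genes and 2 of 4 Elavl genes. Shares were lower in other families, with 7 of 17 Kdm genes, 3 of 8 Cbx genes and 6 of 17 Klf genes. Among Sox genes 3 of 19 did, with 1 of 5 Tle, 0 of 6 Dlx and 0 of 3 Nr2f genes. Ribosomal protein genes had a share near that of all genes, with 8 of 83 (9.64%), although 78 of the 83 had some peak. Zinc finger genes named Zfp had 44 of 365 (12.1%). Among odorant receptor genes named Olfr, 0 of 1135 had a wide peak, with any peak at 25, and among the 331 Vmn genes 0 did.

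Wide peaks were mostly alone. Another wide peak lay within 10 kb of 104 (5.30%), and these formed 49 runs, 43 of 2 peaks and 6 of 3. The runs of 3 included those at Skida1 and Mllt10, at Tnrc18, at Mir9-3, at the HoxA block and at Gm26917. There were 33 genes with at least 2 wide peaks within 5 kb of the TSS, among them Bcl11a, Marcks, Sox4 and Gria2, and Tnrc18 had 3. By chromosome the density ran from 0.164 per Mb on X, with 28 wide peaks, to 1.48 per Mb on chromosome 11, with 181. As a share of all peaks of the chromosome this was 5.17% on X (3.6 to 7.37) and 9.11% on chromosome 11 (7.93 to 10.5), so that most of the difference in density followed the number of peaks. The count per 100 protein-coding genes was 2.95 on X and 14.3 on chromosome 12.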

How the data were processed

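ChIP-seq peak lists of 8 groups, 1 per group, were analysed; 23 samples in 12 groups were labelled, 15 ChIP and 8 input. According to the study's methods, the authors aligned reads to mm10 with Bowtie 1.1.2 on Galaxy and called peaks with MACS, with 1e-05 as the highest p; its version and whether replicates were pooled are not given in the sources used here. The deposited lists give chromosome, start, end, name, a score and a strand, and the score deposited by the authors was 0 for every peak, so no height or p-value was used. The lists hold no read counts, so the depth per sample is unknown. Starts were read as counted from 0 and printed counted from 1, and may be off by 1 bp.

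Genes were the 21755 protein-coding and 9603 lncRNA genes of GENCODE M21 (GRCm38) on 20 chromosomes, taking each gene's 5′ end as TSS. The 2 wide peaks among 23 on chromosome Y were outside the rule. Overlap was counted from 1 bp with Python 3.11.15 and numpy 2.4.6, and shares carry Wilson 95% intervals (scipy 1.17.1). The counting was tested on simulated intervals. A sequence was taken from the RefSeq GRCm38.p6 genome, and of the 2 genes at the widest peak Brd2 was shown. The members and gene lists were chosen with earlier results of these data known.

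Named peaks were every one over 10 kb, the 12 widest of at most 10 kb at a TSS, the 5 widest away from one, the 5 widest at a TSS in no other H3K27ac list, the 3 on either side of the width limit, and for each listed gene its widest wide peak, where some listed genes are not reported here. The microRNA genes, families and peaks with E15.5 H3K27me3 beyond these were named after their values were seen. Alternatives were a limit of 1500 bp, merging within 1 kb, leaving out peaks over 10 kb or chromosome X, other windows and overlaps, and, chosen after seeing the data, leaving out 9 doubted peaks or the HoxA block.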

Additional observations from a re-analysis of the deposited data

Results flagged for a closer look

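The E15.5 H3K27ac list held 6 peaks on the mitochondrial chromosome, which no comparison used. They drew attention because mitochondrial DNA carries no histones and they lay outside the chromosomes analysed. None of the 6 reached 1000 bp, and the widest measured 631 bp. With no input peak list there was no background to set beside them, and their source was not tested.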

How the results depend on the processing

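Over 18 results, each recomputed under its own alternatives, 94 values were obtained, of which 47 stayed within the interval of the reported value (or within 1.5 times for the count), 47 moved beyond it and 0 were reversed. Leaving out peaks over 10 kb, chromosome X or the 9 doubted peaks (the last chosen after seeing the data) moved none of the results they were applied to. With a limit of 1500 bp, 470 wide peaks remained, 76.6% had their centre in a promoter, 92.3% met the CG criterion and 2.33% of genes had one; overlap was 33.2%, 98.9% and 89.4% with H3K27ac of Ebf2-EGFP- cells, E11.5 and E13.5, 83.6% with H3K27me3 of Ebf2-EGFP- cells, 13.8% and 1.91% with that of E13.5 and E15.5, and 17.2% with that of any Ebf2-EGFP+ list. Merging peaks within 1 kb first gave 2965 wide peaks, 85.0% at a TSS, 75.2% in a promoter, 80.7% with the CG criterion and 14.4% of genes, and overlaps of 17.8%, 88.4%, 80.3%, 72.8% and, for H3K27me3 of E11.5 Ebf2-EGFP+ cells, 3.44%. A reciprocal overlap of 50% left 0.560%, 48.2% and 7.64% for H3K27ac of Ebf2-EGFP- cells, E11.5 and E13.5, and 5.20%, 0.0509%, 0.153% and 0.255% for H3K27me3 of Ebf2-EGFP- cells and, by stage, of Ebf2-EGFP+ cells. The central 200 bp gave 15.3%, 84.7% and 50.9% for H3K27ac and 46.7%, 0.764%, 3.97% and 0.611% for H3K27me3 in the same order, and 5.04% for H3K27me3 of any Ebf2-EGFP+ list. The share at a TSS was 86.4% with a window of 1 kb and 97.1% with any transcript start, and the share of genes 9.13% and 10.5%. A promoter of 5 kb gave 90.2%, the whole peak 95.4% with the CG criterion, a single gene start 87.6% with more bases downstream, and a distance of 5 kb 3.87% near another wide peak. Taking as many of the widest peaks of each list as there were wide peaks, 53.9% of those of E11.5 met one, and for Ebf2-EGFP- cells, whose list was shorter than that and was taken whole, 35.1% did. Without the HoxA block, chosen after seeing the data, 5.79% of the E13.5 wide peaks did. The cause was not tested beyond what each setting changes by construction. No paired analysis was possible because each group has 1 list and no result comes from a test. Depth is unknown, so a peak missing from a list is not shown to be absent.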
